A study of Mus musculus with 20 samples.

Results

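The 53 genes described here are the enzymes of amino acid catabolism in mouse liver, the 6 enzymes around the urea cycle and the mitochondrial ornithine carrier. They were chosen by gene symbol, and every probe carrying a chosen symbol was kept, which gave 87 of the 30146 probes and 53 of the 21450 symbols in the deposited table. Of these probes 85 passed the filter on low counts, and the main probe of all 53 genes, the one with the highest mean count, was among them. Liver RNA of 20 male Balb-C mice aged 10-12 weeks was measured with TempO-Seq, in which a pair of detector oligonucleotides anneals side by side on a target RNA, is ligated and is counted by sequencing. All 5 groups were dosed by gavage once a day over 7 days, 4 separate mice in each. The control group (0 mg/kg) received vehicle, and the other groups received 0.03, 0.3, 3 or 6 mg/kg per day of Nafion byproduct 2, a fluorinated ether sulfonic acid from fluoropolymer manufacture. The protocol names deionized water for the controls while the control titles carry the word DMSO, and which was given is not settled here.

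Hepatocytes remove the amino groups of amino acids as ammonia or by transfer to glutamate and aspartate, and the urea cycle, which runs partly in the mitochondrion and partly in the cytosol, turns that nitrogen into urea. The carbon skeletons are broken down by a separate short route for each amino acid, and many of these routes are most active in liver. Ammonia and ureagenesis are handled mainly by hepatocytes near the portal vein, while glutamine is made by those around the central vein.

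Library totals spanned 6823518 to 10310931 counts, and 3 counts equal 0.291 to 0.440 CPM (counts per 1000000 of the library). All values below are CPM of the main probe on TMM-scaled library sizes, in replicate order, with n = 4 per group. A probe's level depends on its own efficiency, so levels of different genes are not compared. Together the 87 probes took 2.38% to 3.53% of a library's counts. Dose_3 replicate 4 and dose_6 replicate 4 stood apart: their mean correlations with the rest of their groups were 0.892 and 0.949, against 0.954 to 0.989 in the other 18 libraries. Log2 levels of GC-rich relative to GC-poor transcripts, against the mean library, were 0.54 and 0.75 in these libraries and -0.43 to 0.32 in the others. Results are therefore also given without both of them. Plate row cannot be told apart from dose over most of the range, since the control and 0.03 mg/kg libraries lay in row A, the 3 and 6 mg/kg libraries in row B, and the 0.3 mg/kg libraries in both. The hepatocyte markers Alb, Ttr, Apoa1, Apoa2, Trf, Serpina1a, Ahsg and Fgb summed to 30323 to 36896 CPM in controls and 19093 to 23553 CPM at 6 mg/kg, and in bulk liver fewer cells of a type and less RNA per cell cannot be told apart. Of the 4 kidney markers, Umod and Slc12a1 had no count in the controls and the sum never exceeded 0.422 CPM in a library.

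At 6 mg/kg the module split: 8 of the 53 genes rose and 9 fell, while 36 did not pass the test. The risers were Asl, Slc25a15, Gpt, Tat, Uroc1, Aldh4a1, Cth and Gnmt, and the fallers were Gls2, Hal, Amdhd1, Prodh, Pccb, Mat1a, Cbs, Bhmt and Shmt1. They come from 8 of the 11 groups of enzymes used below. The 17 genes called by edgeR's quasi-likelihood test at a Benjamini-Hochberg adjusted p under 0.05 are 32.1% of the members, beside 20.5% of all 10097 genes tested (10.9% higher and 9.64% lower). The median log2 fold change was -0.14 over the members and -0.02 over all genes. The 6 mg/kg libraries lay wholly above the controls for 9 members and wholly below for 14, beside 12.2% and 14.7% of all genes. Scaled by library totals, which moved the median of all genes from -0.02 to 0.12, 10 members were higher and 7 lower, beside 1267 genes higher and 633 lower in the whole table (18.8% called). When plate row entered as a covariate, Tat, Mat1a and Gls2 were the 3 members called, beside 3.56% of all genes. In that fit 16 of the 17 genes kept their direction, Prodh being at -0.84 and Aldh4a1 at 2.05. The median SE of the 17 was 0.35 in place of 0.19. The row term of that fit rests on dose_0.3 replicate 4 alone, so these values cannot separate plate row from dose. Without dose_3 replicate 4 and dose_6 replicate 4, 13 members were higher and 14 lower, all 17 genes above were still called, and 28.6% of all genes were.

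**Figure D1:**
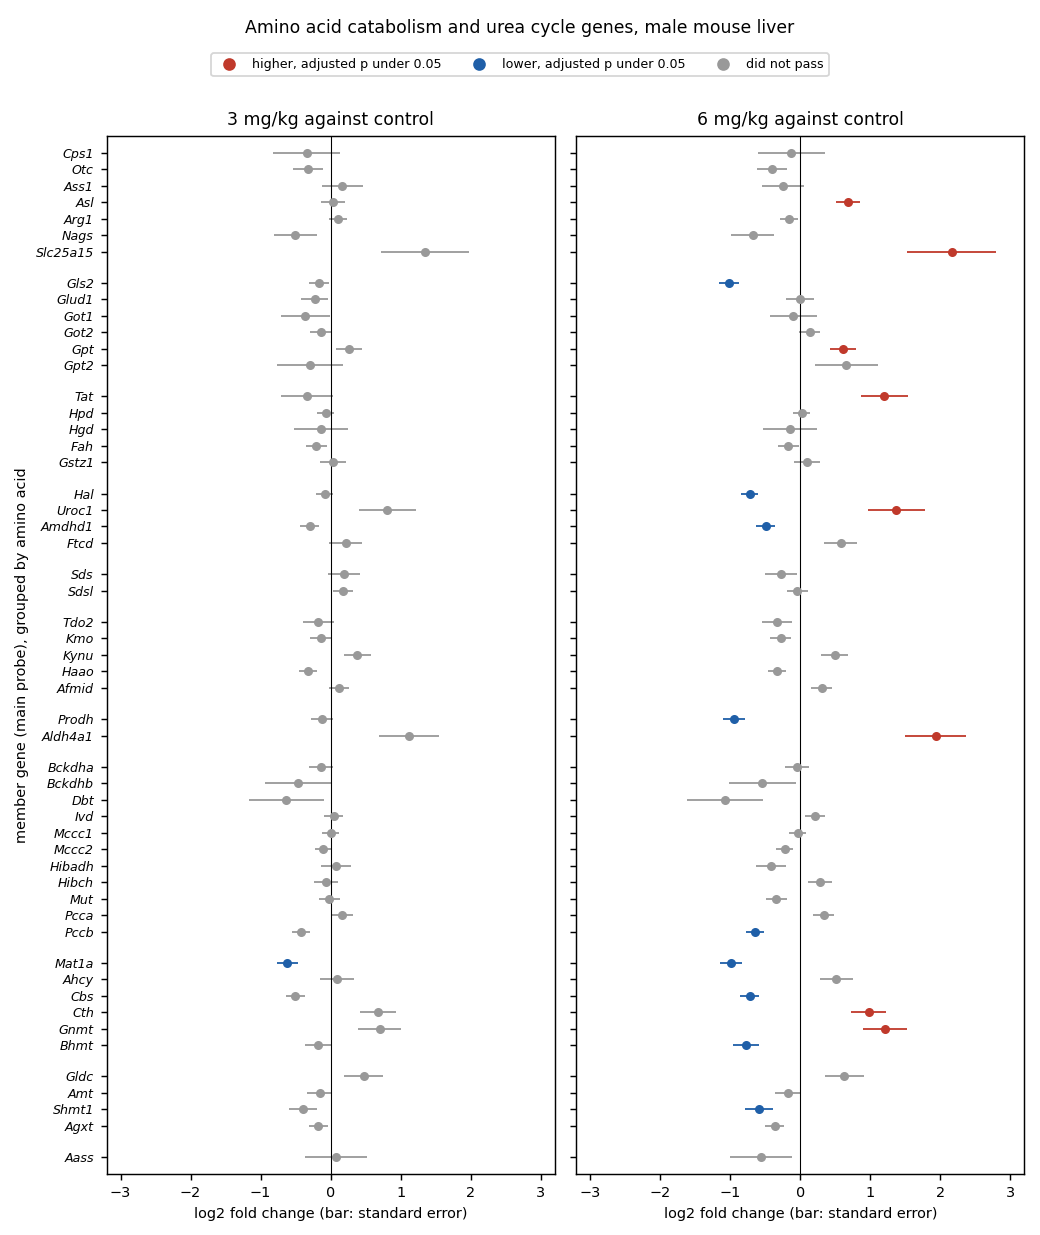
Log2 fold change of each of the 53 members (main probe, point) with its standard error (bar) at 3 mg/kg (left) and 6 mg/kg (right) against the same 4 controls; red and blue mark genes called higher and lower. At 3 mg/kg Mat1a is the single coloured gene, and at 6 mg/kg 8 are red and 9 are blue.

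Consecutive enzymes of a route moved in opposite directions in histidine, proline, methionine and homocysteine breakdown, pairs that were picked after their values were seen. In histidine breakdown, Hal, the ammonia lyase that opens the route, fell, and Uroc1, the urocanate hydratase that follows it, rose. The 250 bases upstream of the RefSeq start sites of both genes are shown as an example of such neighbours. Hal lies on chromosome 10 (93488768 to 93519304, plus strand) and its window is chr10:93488518-93488767. Uroc1 lies on chromosome 6 (90333284 to 90364551, plus strand) and its window is chr6:90333039-90333288, the GENCODE start lying a few bases inside its end. The sequences are those of the reference mouse, a C57BL/6J genome (GRCm38.p6), not of Balb-C, read 5′ to 3′ on the gene's strand. Capitals mark a match to TTGCNNAA, the core bound by C/EBP factors, and a match to TATAAA on the opposite strand in Hal, and a match to AGGTCA on the opposite strand, the half-site of many nuclear receptors, in Uroc1.
Hal: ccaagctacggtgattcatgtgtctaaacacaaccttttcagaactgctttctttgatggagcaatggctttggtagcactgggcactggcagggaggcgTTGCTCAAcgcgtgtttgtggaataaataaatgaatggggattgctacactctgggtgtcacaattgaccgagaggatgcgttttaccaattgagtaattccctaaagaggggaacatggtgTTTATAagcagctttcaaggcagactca
Uroc1: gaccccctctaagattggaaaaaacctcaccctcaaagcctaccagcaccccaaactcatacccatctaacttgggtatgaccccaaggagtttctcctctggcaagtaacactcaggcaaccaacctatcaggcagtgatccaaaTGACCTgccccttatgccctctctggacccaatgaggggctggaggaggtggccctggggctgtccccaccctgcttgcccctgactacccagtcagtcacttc
The first bases of the Hal matches lie 150 and 28 bases before the start, and that of the Uroc1 match 104 bases before it. On both strands, TTGCNNAA occurs in 9.56%, TATAAA in 12.4% and AGGTCA in 14% of the 32851 windows of this length in the RefSeq table, so a match is a description and not a site. Neither window holds TGACG or CACGTG, which 17.8% and 6.02% of all windows hold. Windows were found for 41 of the 53 members.

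In the urea cycle, 2 of 7 genes were called higher and 0 lower at 6 mg/kg, which is 28.6% beside 20.5% of all genes. Of the 7, 5 had a log2 fold change below 0. Cps1, the carbamoyl phosphate synthetase that admits ammonia to the cycle (chromosome 1, 67123026 to 67231259), read 185, 214, 365 and 389 CPM in controls and 231, 307, 314 and 203 CPM at 6 mg/kg. At the doses between, it read 430.3, 347, 404 and 306 CPM at 0.03 mg/kg, 319.9, 380.3, 345 and 389 CPM at 0.3 mg/kg and 317, 283, 292 and 19.8 CPM at 3 mg/kg. The groups overlapped throughout, dose_3 replicate 4 being the lowest of the 20 libraries, and the log2 fold change at 6 mg/kg was -0.13 (SE 0.48, adjusted p = 0.872). Otc, which joins carbamoyl phosphate to ornithine, read 736, 802, 734 and 799 CPM in controls and 677, 616, 610.2 and 419 CPM at 6 mg/kg. It read 841, 819.7, 959.6 and 724 CPM at 0.03 mg/kg, 742, 638, 737 and 658 CPM at 0.3 mg/kg and 693, 743, 725 and 287 CPM at 3 mg/kg. All 4 livers at 6 mg/kg lay below all controls, but the difference did not pass, at -0.40 (SE 0.21, adjusted p = 0.18), and among the alternatives run it passed only when dose_3 replicate 4 alone was left out (-0.39, adjusted p = 0.0289).

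Ass1, which condenses citrulline with aspartate, read 726, 952, 1266 and 1408 CPM in controls and 878, 726, 698 and 1351 CPM at 6 mg/kg. Its lower doses gave 2050.0, 1641, 1481 and 889 CPM at 0.03 mg/kg, 966, 987, 1143 and 1266 CPM at 0.3 mg/kg and 1021, 1004, 773 and 2097 CPM at 3 mg/kg. Controls alone spanned nearly the whole range of the 6 mg/kg group, and the log2 fold change was -0.25 (SE 0.30, adjusted p = 0.573). Asl, which splits argininosuccinate into arginine and fumarate (chromosome 5, 130011258 to 130029247), was the cycle enzyme that rose. It read 289.9, 324, 364 and 375 CPM in controls and 475, 614, 674 and 404 CPM at 6 mg/kg, with 452, 379, 353 and 347 CPM at 0.03 mg/kg, 356, 370.2, 382 and 353 CPM at 0.3 mg/kg and 310.0, 406, 417 and 255 CPM at 3 mg/kg. Each liver at 6 mg/kg exceeded every control, and the gene rose by 0.68 (SE 0.17, adjusted p = 0.00776) on the log2 scale. Its second probe rose as well, by 1.76 (SE 0.25, adjusted p = 5.3e-05).

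Arg1, the arginase that releases urea, read 3046, 3023, 2878 and 3042 CPM in controls and 3135, 2547, 2423 and 2612 CPM at 6 mg/kg. The remaining groups gave 3285, 3173, 3634 and 2830.2 CPM at 0.03 mg/kg, 2688, 2015, 2553 and 2683 CPM at 0.3 mg/kg and 3010.0, 3212, 3100.2 and 3594 CPM at 3 mg/kg. The 6 mg/kg group overlapped the controls (log2 fold change -0.16, SE 0.13, adjusted p = 0.383), whereas all 4 livers at 0.3 mg/kg lay below them without passing (log2 fold change -0.27, SE 0.13, adjusted p = 0.593). Nags makes N-acetylglutamate, the activator of Cps1. It read 197, 180.3, 215 and 202 CPM in controls and 119, 153, 169 and 55.1 CPM at 6 mg/kg. In the other doses it was at 207, 188, 164 and 227 CPM at 0.03 mg/kg, 210.4, 221, 207 and 189 CPM at 0.3 mg/kg and 171, 168, 172 and 49.9 CPM at 3 mg/kg. Both the 3 and the 6 mg/kg livers lay below all controls, with the lowest values in the 2 libraries that stand apart. The change at 6 mg/kg was -0.68 (SE 0.31, adjusted p = 0.122), and without those libraries it fell by 0.42 (SE 0.12, adjusted p = 0.0118).

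Slc25a15, the carrier that exchanges cytosolic ornithine for mitochondrial citrulline, rose at 6 mg/kg, with the highest log2 fold change of the members when all libraries were used. Its counts were low, at 8.11, 8.87, 7.44 and 8.18 CPM in controls and 18.5, 15.8, 15.0 and 95.7 CPM at 6 mg/kg. The other doses gave 16.1, 15.2, 20.2 and 9.88 CPM at 0.03 mg/kg, 6.94, 8.79, 7.71 and 8.96 CPM at 0.3 mg/kg and 8.16, 8.56, 10.1 and 55.1 CPM at 3 mg/kg. Livers at 6 mg/kg all exceeded the controls, dose_6 replicate 4 by far the most, and so did all 4 livers at 0.03 mg/kg. The log2 fold change was 2.16 (SE 0.63, adjusted p = 0.0223). It was 1.03 (SE 0.18, adjusted p = 0.000154) without both libraries that stand apart, below Aldh4a1, Tat and Cth in the same setting, and 0.99 (adjusted p = 0.22) without dose_6 replicate 4 alone. The call was also lost without control replicate 1, 3 or 4, at adjusted p = 0.0579, 0.0553 and 0.0542.

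**Figure D2:**
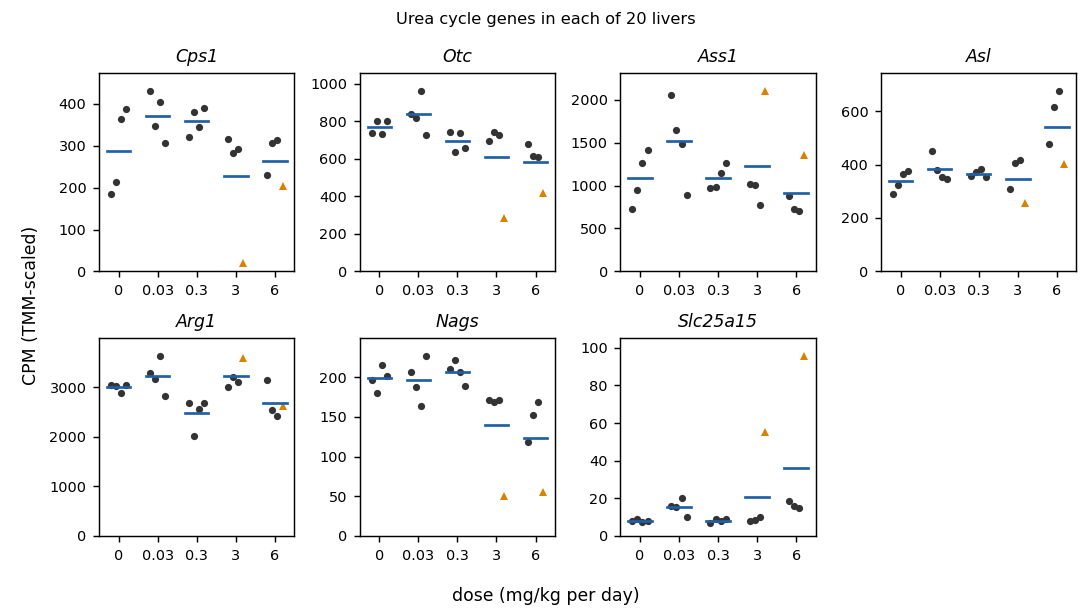
CPM of the 7 urea cycle genes (vertical axis from 0) in each of the 20 livers by dose; points are livers, orange triangles are dose_3 replicate 4 and dose_6 replicate 4, and blue lines are means of 4. Asl is higher at 6 mg/kg in all 4 livers, while the Cps1 range of controls, 185 to 389 CPM, covers the whole 6 mg/kg group.

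Among the 6 genes of glutamate metabolism and transamination, Gls2 fell and Gpt rose at 6 mg/kg, which is 33.3% beside 20.5% of all genes. Gls2, the liver glutaminase that frees ammonia from glutamine in periportal cells (chromosome 10, 128194457 to 128210004), read 319, 364, 484 and 437 CPM in controls and 219, 197, 210.1 and 165 CPM at 6 mg/kg. It read 553, 461, 416 and 383 CPM at 0.03 mg/kg, 409, 385, 417 and 421 CPM at 0.3 mg/kg and 387, 373, 304 and 363 CPM at 3 mg/kg. All livers at 6 mg/kg lay below the lowest control, and the gene fell by 1.02 on the log2 scale (SE 0.15, adjusted p = 5.8e-05). It also passed with plate row as a covariate. Gpt, the cytosolic alanine transaminase, read 93.7, 114, 156 and 128 CPM in controls and 172, 195, 205 and 179 CPM at 6 mg/kg, with 139, 142, 145 and 191 CPM at 0.03 mg/kg, 178, 181, 177 and 141 CPM at 0.3 mg/kg and 114, 119, 142 and 214 CPM at 3 mg/kg. All of the 6 mg/kg livers were above the controls, and the gene rose by 0.61 (SE 0.19, adjusted p = 0.024), a call lost without control replicate 1 or 2 or dose_6 replicate 2 or 3, at adjusted p = 0.0915, 0.0655, 0.0532 and 0.053. The glutamate dehydrogenase Glud1, the aspartate transaminases Got1 and Got2 and the mitochondrial alanine transaminase Gpt2 did not pass, with log2 fold changes of -0.01, -0.10, 0.13 and 0.65.

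In tyrosine breakdown, Tat was the 1 gene of 5 to rise at 6 mg/kg, which is 20% called beside 20.5% of all genes. Tat, the transaminase that starts the route and sets its rate, had low counts, at 1.75, 1.69, 3.99 and 3.25 CPM in controls and 5.16, 6.21, 7.57 and 5.90 CPM at 6 mg/kg. The other doses gave 5.33, 5.17, 8.42 and 9.67 CPM at 0.03 mg/kg, 6.35, 7.45, 5.44 and 3.02 CPM at 0.3 mg/kg and 1.94, 2.82, 2.90 and 1.05 CPM at 3 mg/kg. Every liver at 6 mg/kg and at 0.03 mg/kg exceeded every control, while the 3 mg/kg livers did not. The log2 fold change was 1.20 (SE 0.34, adjusted p = 0.0162) at 6 mg/kg, and 1.40 (SE 0.34) at 0.03 mg/kg, which did not pass. Without control replicate 1 or 2 the adjusted p at 6 mg/kg was 0.0552 or 0.0564. Fah, the hydrolase of the last step, read 773, 759.6, 775 and 806 CPM in controls and 632, 609, 561 and 964 CPM at 6 mg/kg. It was at 817, 781, 810.2 and 754 CPM at 0.03 mg/kg, 759.7, 819.9, 805 and 733 CPM at 0.3 mg/kg and 640.1, 632, 604 and 826 CPM at 3 mg/kg. In 3 of the 4 livers at 6 mg/kg, and likewise at 3 mg/kg, Fah was below all controls, and the fourth library of each group was above them. The change was -0.17 (SE 0.15, adjusted p = 0.429), and it fell by 0.36 (SE 0.09, adjusted p = 0.00534) without both libraries that stand apart. The dioxygenases Hpd and Hgd and the isomerase Gstz1 were at 0.02, -0.14 and 0.09, and none passed.

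Histidine breakdown changed in 3 of its 4 genes at 6 mg/kg, which is 75% beside 20.5% of all genes. Hal read 246, 296, 273 and 314 CPM in controls and 169.8, 167, 167 and 180.2 CPM at 6 mg/kg, with 335, 329, 318 and 231 CPM at 0.03 mg/kg, 283, 284, 279 and 293 CPM at 0.3 mg/kg and 267, 274, 272 and 253 CPM at 3 mg/kg. The 6 mg/kg values lay within a narrow band below every other liver of the study, and the gene fell by 0.72 on the log2 scale (SE 0.12, adjusted p = 0.000283). Uroc1, chosen for full values after they were seen, read 13.7, 18.7, 18.9 and 14.4 CPM in controls and 25.6, 34.6, 28.6 and 81.0 CPM at 6 mg/kg. It read 27.2, 27.4, 29.5 and 17.7 CPM at 0.03 mg/kg, 18.8, 20.0, 17.3 and 14.1 CPM at 0.3 mg/kg and 18.8, 14.4, 19.1 and 62.3 CPM at 3 mg/kg. The 6 mg/kg livers all exceeded the controls, and dose_6 replicate 4 and dose_3 replicate 4 were the highest of all 20. The gene rose by 1.37 (SE 0.41, adjusted p = 0.0238), by 0.86 (SE 0.18, adjusted p = 0.000639) without both of those libraries, and did not pass without dose_6 replicate 4 alone (0.83, adjusted p = 0.147) or without control replicate 1 or 4 (adjusted p = 0.0715 and 0.0633).

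Amdhd1, the imidazolonepropionase of the third step, read 210.0, 233, 259 and 222 CPM in controls and 164, 174, 185 and 134 CPM at 6 mg/kg. It was at 237, 238, 223 and 234 CPM at 0.03 mg/kg, 260.0, 289, 259 and 189.7 CPM at 0.3 mg/kg and 192, 168, 186 and 206 CPM at 3 mg/kg. Its 6 mg/kg and 3 mg/kg livers all lay below the controls, and at 6 mg/kg it fell by 0.49 (SE 0.14, adjusted p = 0.0139). With plate row as a covariate, a term that rests on dose_0.3 replicate 4, Amdhd1 was at 0.013, so its direction turned. Ftcd, which passes the formimino group to folate, was above all controls in every 6 mg/kg liver but did not pass (log2 fold change 0.57, SE 0.23, adjusted p = 0.085). Without both libraries that stand apart Ftcd was called, at 0.56 (SE 0.17, adjusted p = 0.0147).

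Proline breakdown has 2 enzymes here, and they moved apart. Prodh, the mitochondrial proline dehydrogenase (chromosome 16, 18060357 to 18090203), read 80.4, 112, 135 and 123 CPM in controls and 71.6, 57.4, 49.5 and 53.6 CPM at 6 mg/kg. The other doses gave 129.9, 133, 122 and 159 CPM at 0.03 mg/kg, 131, 148, 139 and 128 CPM at 0.3 mg/kg and 110.4, 95.5, 89.4 and 117 CPM at 3 mg/kg. Each 6 mg/kg liver was below the lowest control, and the gene fell by 0.96 on the log2 scale (SE 0.16, adjusted p = 0.000219). Aldh4a1, the dehydrogenase that completes the conversion of proline to glutamate (chromosome 4, 139622866 to 139649690), read 35.4, 33.1, 44.7 and 34.4 CPM in controls and 91.1, 120.4, 117 and 235 CPM at 6 mg/kg. It read 59.2, 56.0, 79.1 and 50.8 CPM at 0.03 mg/kg, 48.4, 59.1, 48.7 and 47.9 CPM at 0.3 mg/kg and 41.4, 40.0, 39.7 and 200.0 CPM at 3 mg/kg. Each of the 6 mg/kg livers held more than any control, and so did all livers at 0.03 and 0.3 mg/kg, where the gene did not pass. The rise at 6 mg/kg was 1.93 (SE 0.44, adjusted p = 0.00461), and 1.58 (SE 0.14, adjusted p = 1.4e-08) without the libraries that stand apart.

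The 6 genes of methionine and homocysteine metabolism held 5 of the 17 calls at 6 mg/kg, which is 83.3% of the 6 beside 20.5% of all genes. Mat1a, the liver synthetase of S-adenosylmethionine, the methyl donor (chromosome 14, 41105035 to 41124412), read 633, 554, 561 and 542 CPM in controls and 301, 302, 321 and 223 CPM at 6 mg/kg. It read 663, 526, 602 and 545 CPM at 0.03 mg/kg, 529, 456, 492 and 524 CPM at 0.3 mg/kg and 450.0, 406, 379.6 and 257 CPM at 3 mg/kg. All livers at 0.3, 3 and 6 mg/kg lay below all controls, while those at 0.03 mg/kg overlapped them. Mat1a was the 1 member called at 3 mg/kg, where it fell by 0.62 (SE 0.15, adjusted p = 0.0468), a call lost in 23 of 31 alternatives, and at 6 mg/kg it fell by 0.997 (SE 0.16, adjusted p = 0.000124). Its second probe fell by 1.05 at 6 mg/kg (SE 0.20, adjusted p = 0.000903) and was at -0.23 at 3 mg/kg (SE 0.20, adjusted p = 0.673), which did not pass. Gnmt, the glycine methyltransferase that consumes S-adenosylmethionine (chromosome 17, 46725664 to 46729168), was chosen for full values after they were seen. It read 294, 287, 335 and 289 CPM in controls and 561, 587, 545 and 1097 CPM at 6 mg/kg, with 468, 446, 589.9 and 407 CPM at 0.03 mg/kg, 343, 350.5, 329 and 346 CPM at 0.3 mg/kg and 313, 310.0, 326 and 1007 CPM at 3 mg/kg. All livers at 6 and at 0.03 mg/kg exceeded the controls, and the 2 libraries that stand apart held the highest values. The rise at 6 mg/kg was 1.21 (SE 0.31, adjusted p = 0.00946). It was 0.92 (SE 0.11, adjusted p = 9.4e-07) without both of those libraries and 0.89 (adjusted p = 0.0601) without dose_6 replicate 4 alone. Its second probe, at under 20 CPM, was at -0.08 (SE 0.26).

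Cbs, which condenses homocysteine with serine into cystathionine, read 493, 483, 524 and 479 CPM in controls and 299.7, 325, 348 and 224 CPM at 6 mg/kg. It was at 551, 515, 487 and 483 CPM at 0.03 mg/kg, 506, 486, 539 and 469 CPM at 0.3 mg/kg and 386, 376, 357 and 276 CPM at 3 mg/kg. Every liver at 3 and 6 mg/kg was below every control. Cbs fell by 0.73 at 6 mg/kg (SE 0.14, adjusted p = 0.000785) and at 3 mg/kg it was at -0.50 (SE 0.14, adjusted p = 0.0701), or -0.41 (SE 0.10, adjusted p = 0.0188) without the libraries that stand apart, which passed. Cth, the lyase that cuts cystathionine to cysteine, read 115, 108, 127 and 112 CPM in controls and 230.1, 264, 267 and 152 CPM at 6 mg/kg, again chosen after its values were seen. It read 132, 142, 164 and 118 CPM at 0.03 mg/kg, 135, 137, 116 and 119.8 CPM at 0.3 mg/kg and 116, 138, 145 and 343 CPM at 3 mg/kg. The 6 mg/kg livers were all above the controls, and the gene rose by 0.98 (SE 0.25, adjusted p = 0.00946). Its second probe rose by 1.17 (SE 0.25, adjusted p = 0.00231). Bhmt, which returns homocysteine to methionine with betaine, was also chosen after its values were seen and read 3037, 3757, 5254 and 4836 CPM in controls and 3412, 2429.9, 2369.7 and 1639 CPM at 6 mg/kg. The other doses gave 4486, 5439.5, 4638 and 4655 CPM at 0.03 mg/kg, 4334, 5239, 5155 and 4449.6 CPM at 0.3 mg/kg and 3678, 3757, 3532 and 3876 CPM at 3 mg/kg. Bhmt fell by 0.78 (SE 0.19, adjusted p = 0.00545), although its highest liver at 6 mg/kg was above the lowest control. The hydrolase Ahcy did not pass (log2 fold change 0.51, SE 0.24, adjusted p = 0.13), but did without both libraries that stand apart, at 0.64 (SE 0.23, adjusted p = 0.0399).

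**Figure D3:**
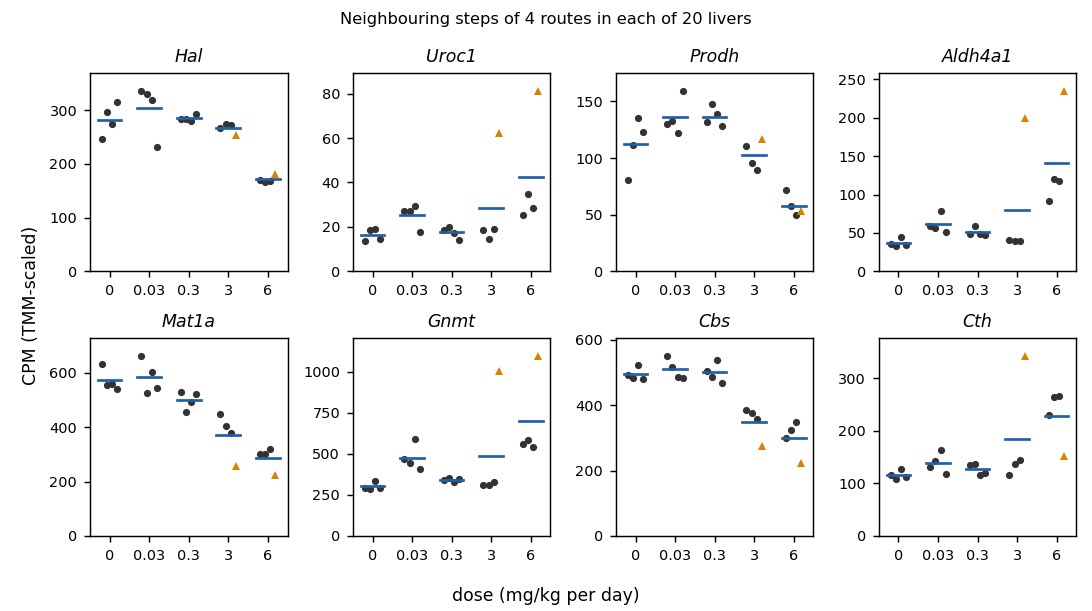
CPM of 4 pairs of neighbouring enzymes (vertical axes from 0) in each of the 20 livers by dose: Hal and Uroc1, Prodh and Aldh4a1, Mat1a and Gnmt, Cbs and Cth. Points are livers, orange triangles are dose_3 replicate 4 and dose_6 replicate 4, and blue lines are means of 4; at 6 mg/kg the first of each pair lies below and the second above the controls.

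Of the 11 genes for branched-chain amino acids and propionate, Pccb fell and 10 did not pass at 6 mg/kg. That is 9.09% called, beside 20.5% of all genes. Pccb, a subunit of propionyl-CoA carboxylase, read 288, 279, 293 and 325 CPM in controls and 176, 186, 185 and 207 CPM at 6 mg/kg. It read 314, 295, 238 and 255 CPM at 0.03 mg/kg, 267, 249, 257 and 281 CPM at 0.3 mg/kg and 250.0, 242, 222 and 171 CPM at 3 mg/kg. All livers at 3 and 6 mg/kg lay below the controls, and at 6 mg/kg the gene fell by 0.65 (SE 0.13, adjusted p = 0.0013). Mut, the mutase that turns methylmalonyl-CoA into succinyl-CoA, read 243, 229.5, 204 and 247 CPM in controls and 219.9, 181, 189.9 and 137 CPM at 6 mg/kg. The other doses gave 254, 223, 238 and 179 CPM at 0.03 mg/kg, 192, 183, 192 and 217 CPM at 0.3 mg/kg and 211, 235, 192 and 274 CPM at 3 mg/kg. The groups overlapped, at -0.34 (SE 0.15, adjusted p = 0.111). The acyltransferase Dbt of the branched-chain dehydrogenase was below all controls in each 6 mg/kg liver (log2 fold change -1.08, SE 0.54, adjusted p = 0.162), and the liver of dose_3 replicate 4 was at 2.48 CPM, its 3 group mates at 81.4 to 98.7 CPM. Without both libraries that stand apart, Dbt fell by 0.97 (SE 0.15, adjusted p = 1.9e-05). The dehydrogenase subunits Bckdha and Bckdhb were at -0.05 and -0.55. Later enzymes of the leucine route, Ivd, Mccc1 and Mccc2, were at 0.21, -0.04 and -0.23, those of valine, Hibch and Hibadh, at 0.27 and -0.42, and the carboxylase subunit Pcca at 0.33. Hibch was called without both libraries that stand apart, at 0.41 (SE 0.12, adjusted p = 0.0104).

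By main probe, no gene of tryptophan breakdown passed edgeR's test in the main fit on all 20 libraries. Other probes of Haao and Tdo2, at means of 18.4 and 10.0 CPM, were called lower at 6 mg/kg in that fit (adjusted p = 0.0116 and 0.000625). The main probes of Haao and Tdo2 had means of 1204 and 2161 CPM. A further probe of Tdo2, at a mean of 123 CPM, was at 0.36 without passing (adjusted p = 0.207). Kynu, the kynureninase, read 134, 137, 196 and 135 CPM in controls and 199.7, 245, 254 and 146 CPM at 6 mg/kg. It was at 152, 161, 168 and 172 CPM at 0.03 mg/kg, 184, 178, 135 and 131 CPM at 0.3 mg/kg and 157, 161, 239.7 and 228 CPM at 3 mg/kg. Control replicate 3 and dose_6 replicate 4 brought the groups into overlap, and the log2 fold change was 0.49 (SE 0.19, adjusted p = 0.0703). It was 0.64 (SE 0.16, adjusted p = 0.00407) without the libraries that stand apart, a call made in 7 of the alternatives tried. Haao, the dioxygenase that makes the precursor of quinolinate, read 1327, 1386, 1263 and 1172 CPM in controls and 1201, 925, 883 and 1056 CPM at 6 mg/kg. It read 1241, 1317, 1385 and 1409 CPM at 0.03 mg/kg, 1398, 1319, 1485 and 1204 CPM at 0.3 mg/kg and 1079, 1138, 1039 and 862 CPM at 3 mg/kg. The 3 mg/kg livers were all below the controls, those at 6 mg/kg overlapped them in 1 liver, and neither dose passed (log2 fold change -0.32, SE 0.13, adjusted p = 0.294 at 3 mg/kg and -0.34, SE 0.13, adjusted p = 0.0622 at 6 mg/kg). At 6 mg/kg Haao was called lower in 7 of the alternatives, among them DESeq2 (adjusted p = 0.0275) and the fit without both libraries that stand apart (-0.34, adjusted p = 0.0292). Tdo2, the dioxygenase that opens the route, Afmid, the formamidase, and Kmo, the monooxygenase, were at -0.34, 0.30 and -0.28, and Afmid was called without those libraries, at 0.44 (SE 0.12, adjusted p = 0.00719).

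Among the genes of serine, glycine, glyoxylate and lysine, Shmt1 fell. Shmt1, the cytosolic serine hydroxymethyltransferase, read 117, 101, 101 and 127 CPM in controls and 78.9, 87.6, 80.4 and 48.8 CPM at 6 mg/kg. The other doses gave 129, 106, 114 and 113 CPM at 0.03 mg/kg, 93.8, 104, 103 and 112 CPM at 0.3 mg/kg and 101, 106, 87.7 and 45.4 CPM at 3 mg/kg. All 4 livers at 6 mg/kg were below the controls, and the gene fell by 0.59 (SE 0.21, adjusted p = 0.0456). The adjusted p rose above 0.05, to at most 0.126, when any of 13 single libraries was left out, control replicate 4 giving the highest. Agxt, the peroxisomal transaminase that clears glyoxylate, read 31.0, 32.9, 29.8 and 30.8 CPM in controls and 25.7, 21.2, 24.8 and 24.6 CPM at 6 mg/kg. It was at 30.6, 32.0, 35.1 and 27.0 CPM at 0.03 mg/kg, 29.6, 29.6, 31.1 and 24.4 CPM at 0.3 mg/kg and 27.3, 26.3, 23.3 and 33.0 CPM at 3 mg/kg. It was below all controls in each 6 mg/kg liver without passing (log2 fold change -0.37, SE 0.13, adjusted p = 0.0544). It was called lower in 5 of the alternatives, among them DESeq2 (adjusted p = 0.0351) and the fit without both libraries that stand apart (-0.36, adjusted p = 0.0334).

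Sds, the serine dehydratase, read 28.6, 32.8, 55.0 and 32.7 CPM in controls and 33.6, 30.5, 33.8 and 25.2 CPM at 6 mg/kg. It read 33.5, 36.3, 52.2 and 64.0 CPM at 0.03 mg/kg, 65.4, 46.9, 61.1 and 45.0 CPM at 0.3 mg/kg and 42.2, 31.0, 51.5 and 45.9 CPM at 3 mg/kg. Its homologue Sdsl read 10.2, 13.1, 15.2 and 13.2 CPM in controls and 10.9, 13.6, 11.5 and 14.2 CPM at 6 mg/kg. The 3 lower doses of Sdsl gave 15.6, 16.0, 14.7 and 13.6 CPM at 0.03 mg/kg, 12.6, 13.7, 14.1 and 14.3 CPM at 0.3 mg/kg and 14.1, 15.2, 13.6 and 15.4 CPM at 3 mg/kg. Both genes overlapped the controls at every dose, with -0.28 (SE 0.23) for Sds and -0.04 (SE 0.14) for Sdsl at 6 mg/kg. Aass, the bifunctional enzyme that starts lysine breakdown, read 108, 105, 125 and 175 CPM in controls and 97.1, 122, 107 and 20.9 CPM at 6 mg/kg. It read 193, 132, 142 and 87.3 CPM at 0.03 mg/kg, 88.2, 95.6, 85.9 and 155 CPM at 0.3 mg/kg and 182, 156, 162 and 41.9 CPM at 3 mg/kg. Its log2 fold change at 6 mg/kg was -0.56 (SE 0.45, adjusted p = 0.385), with the 2 libraries that stand apart at the bottom of the range. Gldc and Amt, parts of the glycine cleavage system, were at 0.63 and -0.18 and did not pass.

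The lower doses were compared with the same 4 controls, so their values share those libraries and are given side by side only. At 0.03 and at 0.3 mg/kg no member was called by edgeR, nor was any gene of the whole table (0%). Its unadjusted p was under 0.05 for 2 and 6 of the 53 members, beside 328 and 875 of all 10097 genes. DESeq2 and limma-voom also called 0 members at either dose, beside 0.0198% and 0.248% of all genes with DESeq2 and 0% with limma-voom. At 3 mg/kg 1 of 53, Mat1a, was called, lower, which is 1.89% beside 1.54% of all genes (1.13% higher and 0.406% lower). Leaving out a single library moved the count of members called lower at 3 mg/kg between 0 and 2, beside 0.99% to 2.05% of all genes called. The call of Mat1a was lost when any of 18 of the 20 libraries was left out, and its fold change stayed below 0 in all 20 cases. The treated livers lay wholly above the controls for 4, 1 and 0 members at 0.03, 0.3 and 3 mg/kg, beside 1.69%, 3.17% and 3.44% of all genes, and wholly below for 0, 4 and 6, beside 1.72%, 3.76% and 4.59%. The 8 genes that rose at 6 mg/kg had median log2 fold changes of 0.65, 0.16, 0.69 and 1.21 at 0.03, 0.3, 3 and 6 mg/kg, so the lowest dose gave higher values than the next one. Without both libraries that stand apart, their median at 3 mg/kg was 0.10, with values from -0.09 to 0.19, and that at 6 mg/kg was 0.98. At 0.03 mg/kg 8 of these 8 were above 0, as were 8 of the 9 that fell, 41 of all 53 members and 4736 of all 10097 genes. For the 9 that fell, the medians were 0.05, 0.01, -0.30 and -0.73, with 9 of 9 below 0 at 3 mg/kg, where the median without both libraries was -0.21. These genes were chosen by their change at 6 mg/kg. Without dose_3 replicate 4 and dose_6 replicate 4, Gnmt was the 1 member called at 0.03 mg/kg, beside 0.00993% of all genes.

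To see where the 6 mg/kg group differed from the next lower dose, both were compared directly, which uses the same 6 mg/kg libraries again. Asl and Tat were higher and Gls2, Hal and Prodh were lower, 5 of 53 members or 9.43%, beside 6.96% of all genes (3.77% higher and 3.19% lower). Tat gave the largest value, 1.54 (SE 0.35, adjusted p = 0.0124), followed by Gls2 at -0.85 (SE 0.15, adjusted p = 0.00233), Prodh at -0.83 (SE 0.16, adjusted p = 0.00425), Hal at -0.64 (SE 0.12, adjusted p = 0.00428) and Asl at 0.64 (SE 0.17, adjusted p = 0.0276). The livers of both doses did not overlap for Tat, which was higher, and for Gls2, Hal, Prodh and Bhmt, which were lower, beside 5.74% and 5.81% of all genes, and Bhmt did not pass (log2 fold change -0.59, SE 0.19, adjusted p = 0.0583). Asl and Tat were no longer called without dose_3 replicate 1 (adjusted p = 0.0978 and 0.0508), nor was Asl without dose_6 replicate 2 or 3 (0.0838 and 0.082). Without both libraries that stand apart, 9 members were higher and 7 lower, beside 17.9% of all genes.

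Some members had several probes, and whether those of a gene read the same transcript was not checked. The 32 other tested probes of 25 members had the sign of the main probe in 19 cases and the other sign in 13, and 9 of them were called at 6 mg/kg, beside 20.3% of all probes. Of the 16 with a mean of at least 20 CPM, 11 shared the sign, as did 8 of the 16 below that level. Differences concerned some of the genes above. Gls2 had other probes at -0.58 (SE 0.23) and 1.002 (SE 0.43), neither called and both under 20 CPM, and the other probe of Pccb was at 0.74 (SE 0.27, adjusted p = 0.0568). Prodh, Cbs, Amdhd1 and Shmt1 had other probes that were lower without passing, at -0.39 and -0.81 for Prodh, -0.34 for Cbs, -0.17 for Amdhd1 and -0.60 for Shmt1.

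Of the 20 other probes of genes whose main probe did not pass, 6 were called at 6 mg/kg, beside 20.3% of all probes. Both other probes of Pcca were higher, by 0.63 and 0.83. The other probe of Bckdha, at a mean of 3.69 CPM, was higher by 2.92 (SE 0.70, adjusted p = 0.00654), its main probe being at -0.05. That other probe rose by 1.80 (SE 0.41) without both libraries that stand apart. The third probe of Got1, at a mean of 2.40 CPM, was higher by 1.25 (SE 0.40, adjusted p = 0.0314), its main probe being at -0.10. A probe of Haao was lower by 0.70 (log2 fold change -0.70) and a probe of Tdo2 lower by 1.10 (log2 fold change -1.10), at means of 18.4 and 10.0 CPM. The sign differed from the main probe, without a call, for another probe of Got1 (0.46), Fah (0.27 and 0.02), Gstz1 (-0.04), Tdo2 (0.36), Mccc1 (0.26), Mccc2 (0.23) and Aass (0.06).

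**Figure D4:**
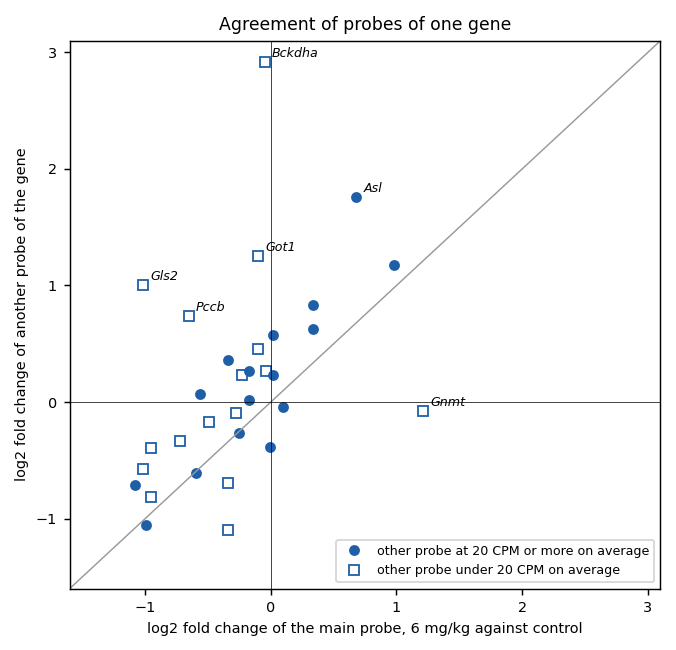
Log2 fold change at 6 mg/kg against control of the 32 other probes (vertical) against that of the main probe of the same gene (horizontal), with the line of equality; filled points have a mean of 20 CPM or more. Named points lie far from the line, and 13 of the 32 lie in quadrants of opposite sign.

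Other genes of amino acid metabolism, which are not members, were read in the same fit. Of 60 tested enzymes and transporters, 4 rose and 16 fell at 6 mg/kg, which is 33.3% with a median log2 fold change of -0.21 (beside 20.5% and -0.02 over all genes). Slc1a2, a glutamate transporter, and Glul, the glutamine synthetase, both of hepatocytes around the central vein, fell by 1.97 (SE 0.23) and 1.68 (SE 0.25). Glul read 88.6, 72.3, 108 and 112 CPM in controls and 41.8, 27.0, 23.1 and 26.8 CPM at 6 mg/kg. Each liver at 6 mg/kg was below every control. Oat, the ornithine aminotransferase, read 194, 165, 203 and 187 CPM in controls and 105, 110.2, 113 and 101 CPM at 6 mg/kg, fell by 0.81 (SE 0.13) and fell by 0.79 (SE 0.13) at 3 mg/kg already, where Slc1a2 also fell, by 0.87 (SE 0.22). Mmaa, a protein of cobalamin metabolism, and Shmt2, the mitochondrial serine hydroxymethyltransferase, rose by 1.27 (SE 0.33) and 0.52 (SE 0.17).

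Regulators and location markers followed. Of 14 transcription factors and receptors that act on these genes, Cebpb rose by 0.92 (SE 0.23), and Cebpa, Ppargc1a, Ppara and Foxo1 fell by 1.34 (SE 0.16), 1.46 (SE 0.26), 0.81 (SE 0.17) and 1.48 (SE 0.40). Of the 7 tested genes of 16 that respond to amino acid shortage or make amino acids, Trib3 and Vldlr rose by 1.77 (SE 0.40) and 2.11 (SE 0.51), and Atf4 fell by 0.68 (SE 0.24), while Asns, the asparagine synthetase, was too low to be tested. Of 9 periportal markers, Ctsc and Pigr fell and none rose. Of 13 pericentral markers, Cyp1a2 rose and 6 fell, among them Slc1a2, Glul and Oat. The calls were 22.2% of the periportal and 53.8% of the pericentral markers, beside 20.5% of all genes (10.9% higher and 9.64% lower). They were 35.7% of the 14 transcription factors and receptors and 42.9% of the 7 amino acid genes. The summed periportal markers were at 1533 to 1811 CPM in controls and 965 to 1271 CPM at 6 mg/kg, and the summed pericentral markers at 9541 to 12845 CPM and 5547 to 7258 CPM. Sums also differed for 9 lymphocyte and neutrophil markers, at 13.5 to 26.3 CPM in controls and 41.0 to 66.1 CPM at 6 mg/kg, and for 7 stellate cell markers, at 183 to 215 CPM and 99.1 to 142.9 CPM. Of the 6 lymphocyte and neutrophil markers tested, the neutrophil gene S100a8 rose by 4.92 (SE 0.45). The other 5 were below 0 and 2 of them passed, so that the median of the list was -0.82. Calls made up 50% of these 6 markers. Of the 7 stellate cell markers, 4 were called lower and 1 higher, which is 71.4%. The highest log2 fold change among them was 2.07, so the sum does not describe each marker. The 8 Kupffer cell markers were at 102 to 148 CPM and 64.7 to 103.6 CPM, and 7 endothelial markers at 92.7 to 106 CPM and 89.7 to 122 CPM. Of the 7 Kupffer cell markers tested, 1 was called lower (14.3%). Of the 6 endothelial markers tested, 1 was called higher (16.7%), the highest log2 fold change being 1.20. The part of these shifts in the results on the members was not tested. Median transcript GC content was 54.7% for the 8 risers, 49.8% for the 9 fallers and 50.6% for the other 36 members, and with each library's GC trend removed all 17 genes were still called.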

How the data were processed

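TempO-Seq probe counts of 20 mouse livers were used, 4 per dose. The authors deposited raw counts per probe, 1 column per mouse, and no step of normalization shows in the values. Bowtie and the build GRCm38.p5 were used per the submitters' processing notes, with version and counting settings not given in the sources used here. Every column was matched to a sample by its label, and each row names a gene. No pair of libraries of a group was a copy (lowest chi-square ratio to its degrees of freedom 4.03 over 30 pairs).

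The filterByExpr defaults retained 14122 of 30146 probes, and counts were scaled by TMM and fitted with edgeR 4.0.16 in R 4.3.3 (glmQLFit, robust, glmQLFTest) over all 20 libraries with 1 mean per group. Benjamini-Hochberg adjustment ran over all probes of a comparison (threshold 0.05), and each gene was represented by its probe of highest mean count. CPM were computed here from the deposited counts. Standard errors (SE) are those of log2 fold changes. Replicate numbers follow accession order and pair nothing.

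The members and gene lists were chosen with earlier results of these data known. Values in every library are given for Cps1, Otc, Ass1, Asl, Arg1, Nags, members called at 3 mg/kg and, per group of enzymes, the 2 members with the smallest p at 6 mg/kg. Other lists name up to 2 genes per direction with the smallest p, and Glul, Oat and Asns. Of the transcription factors and receptors, all 5 called at 6 mg/kg are named. Some genes of these lists are not reported here.

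Alternatives were size factors of the DESeq2 type, library totals, no count filter, at least 50 counts in 4 libraries, DESeq2 1.42.0, limma-voom (limma 3.58.1), the 8 libraries of a comparison, plate row as a covariate, summed probes, and each library left out in turn. Leaving out dose_3 replicate 4 with dose_6 replicate 4, and removing the trend of each library on GC content of the transcripts, were added after seeing the data. Functions were tested on simulated data. Gene positions are from GENCODE M21 (GRCm38) and promoter windows from RefSeq (GRCm38.p6), and probe positions were not used here. The limit that 3 counts give takes in counting error alone and is a lower bound, since amplified reads are not independent molecules.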

Additional observations from a re-analysis of the deposited data

Results flagged for a closer look

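A value is listed here where, among the 4 livers of a group, the gap between the most extreme liver and its nearest neighbour exceeded Dixon's critical share of the range of the group. The test was run on 150 sets, the 5 groups of each of 30 genes, and 21 sets passed it. Chance marks about 1 in 20 groups. The 30 genes are the named members and the members called at 6 mg/kg, in CPM of the main probe.

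Dose_3 replicate 4 accounted for 9 of the 21 and dose_6 replicate 4 for 3. At 3 mg/kg, replicate 4 was the lowest for Cps1 at 19.8 CPM (the others from 283 to 317), Otc at 287 CPM (693 to 743) and Nags at 49.9 CPM (168 to 172). It was the highest for Slc25a15 at 55.1 CPM (8.16 to 10.1), Fah at 826 CPM (604 to 640.1), Uroc1 at 62.3 CPM (14.4 to 19.1), Aldh4a1 at 200.0 CPM (39.7 to 41.4), Cth at 343 CPM (116 to 145) and Gnmt at 1007 CPM (310.0 to 326). At 6 mg/kg, replicate 4 was the highest for Slc25a15 at 95.7 CPM (15.0 to 18.5), Uroc1 at 81.0 CPM (25.6 to 34.6) and Gnmt at 1097 CPM (545 to 587). For Slc25a15, Uroc1 and Gnmt the replicate 4 libraries of both doses were therefore the extreme ones.

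Control replicate 3 was the lowest control for Arg1 at 2878 CPM (3023 to 3046) and the highest for Sds at 55.0 CPM (28.6 to 32.8), Kynu at 196 CPM (134 to 137) and Gnmt at 335 CPM (287 to 294). At 0.03 mg/kg, replicate 4 was the highest for Gpt at 191 CPM (139 to 145) and the lowest for Hal at 231 CPM (318 to 335). At 0.3 mg/kg, replicate 4 was the lowest for Gpt at 141 CPM (177 to 181) and the highest for Aass at 155 CPM (85.9 to 95.6), and replicate 2 was the highest for Aldh4a1 at 59.1 CPM (47.9 to 48.7).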

How the results depend on the processing

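No paired analysis was possible because the labels carry no replicate numbers and accession order pairs nothing. No member was called at 0.3 mg/kg in any setting run, and at 0.03 mg/kg 1 was called higher without dose_3 replicate 4 and dose_6 replicate 4 together. The single member called lower at 3 mg/kg became 0 with no count filter, with the 8 libraries of the comparison and with plate row. The count was also 0 with summed probes and with the GC trend removed. In these settings 0.0099% (plate row) to 1.73% (summed probes) of all genes were called. The count was 2 with at least 50 counts in 4 libraries (1.91% of all genes) and without both libraries that stand apart (2.81%). It was 3 with DESeq2 (2.7%), beside 1.54% of all genes in the main fit. At 6 mg/kg the 8 higher and 9 lower members became 1 and 2 with plate row and 13 and 14 without both libraries. Of all genes, 3.56% and 28.6% were called in these fits, beside 20.5% in the main fit. For 6 against 3 mg/kg the 2 higher became 0 with the 8 libraries, 1 with the GC trend removed and 9 without both libraries. The 3 lower became 0 with the 8 libraries, 5 with summed probes and 7 without both libraries. Of all genes, 0.0958% were called with the 8 libraries, 7.15% with the GC trend removed, 8.12% with summed probes and 17.9% without both libraries. The main fit called 6.96% of all genes. Leaving out each library in turn gave 0 to 2 lower at 3 mg/kg. At 6 mg/kg it gave 4 (without control replicate 1) to 11 higher and 8 to 14 (without dose_3 replicate 4) lower. Of all genes, 15.3% were called at that dose without control replicate 1 and 31.5% without dose_3 replicate 4. For 6 against 3 mg/kg it gave 0 (without dose_3 replicate 1) to 10 (without dose_3 replicate 4) higher and 3 to 7 (without dose_3 replicate 4) lower. In that comparison 2.19% of all genes were called without dose_3 replicate 1 and 21.9% without dose_3 replicate 4. Among the 17 genes called at 6 mg/kg the direction turned for Amdhd1 alone, to 0.013 with plate row, and of the named members that did not pass, Cps1, Sds and Sdsl reached values above 0, at most 0.07, 0.08 and 0.10. The 17 genes called at 6 mg/kg were all called again with size factors of the DESeq2 type, the stricter filter, DESeq2, the 8 libraries, summed probes and the GC trend removed, 15 of them with library totals or limma-voom, 13 with no count filter and 3 with plate row. The causes of these changes were not tested. The lowest mean levels among the main probes were those of Got1 (3.49 CPM) and Tat (4.75 CPM), where counting error is largest.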
